A study of Mus musculus with 6 samples.

Results

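Open chromatin at the genes of the estrogen receptors (Esr1, Esr2), the estrogen-related receptors (Esrra, Esrrb, Esrrg) and the estrogen-induced genes Greb1 and Pgr was followed in mouse AML1/ETO 9a (AE9a) leukaemia cells after oil or tamoxifen. Members were all ATAC-seq peaks that the annotation assigned to 1 of the 7 genes within 200000 bp of a transcription start site (TSS), which gave 82 of 175929 peaks. The genes were selected from the measured contrast of tamoxifen with oil in these same libraries, so every difference between the groups at these peaks is given as a description, without a test. Esrrb had 33 peaks, Esr2 28, Greb1 13, Esr1 4, Esrra 2 and Pgr 2, and Esrrg had 0. No peak of these genes lay beyond the distance limit (0), and the farthest member lay 131344 bp from its TSS.

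Both groups held AE9a leukaemia of genotype Usp18+/f UBCER-Cre, with 1 floxed allele of Usp18, the gene of the protease that removes ISG15, and a Cre fused to an estrogen receptor domain and driven by a ubiquitin promoter. The cells were transplanted, recipients that had become sick received oil (replicates 1, 2 and 4) or tamoxifen (replicates 1, 3 and 4), and 3 days after injections began GFP+ Lin- c-Kit+ cells were taken by sorting from the spleen. As the floxed allele and the Cre were present in both groups, they differed by the drug together with the loss of a Usp18 allele that it sets off, and these cannot be told apart. The study's methods give 3 mice a group for the sorted cells of which a set served for ATAC-seq, the labels tie no library to a mouse, and n counts libraries throughout. The study's methods describe young adult mice of both sexes.

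Estrogen receptors are nuclear receptors that, once bound by estradiol, bind DNA and switch on genes such as Greb1 and Pgr in breast and uterus. Tamoxifen binds the same pocket and acts as an antagonist or a partial agonist depending on the tissue. The estrogen-related receptors share the DNA-binding fold but do not need estradiol. Esrra regulates mitochondrial metabolism, Esrrb is best known from trophoblast and embryonic stem cells, and the active metabolite of tamoxifen binds the products of Esrrb and Esrrg. The classical estrogen response element joins the letters AGGTCA to their mirror copy across 3 bases, whereas estrogen-related receptors favour a single copy with a short extension, TCAAGGTCA.

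The sequences shown here carry the patterns described further on. All are on the plus strand of mm10, read from the reference genome of that build, and capitals mark the letters AGATAA (core of the motif of GATA factors), TCAAGGTCA, TGANTCA (AP-1), TGTGGT (RUNX), CCGGAAGT (ETS) or the reverse complement of any of these. The first 4 are called Esrrb peaks that hold AGATAA, shown whole or as their central 300 bases.
Esrrb +51.9 kb, central part, chr12:86473377-86473676: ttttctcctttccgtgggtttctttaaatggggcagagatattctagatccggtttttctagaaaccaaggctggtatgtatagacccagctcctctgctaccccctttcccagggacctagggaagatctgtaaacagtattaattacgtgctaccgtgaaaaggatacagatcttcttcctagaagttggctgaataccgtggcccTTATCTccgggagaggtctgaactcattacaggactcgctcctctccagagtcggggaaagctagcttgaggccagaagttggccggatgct
Esrrb +53.4 kb, central part, chr12:86474878-86475177: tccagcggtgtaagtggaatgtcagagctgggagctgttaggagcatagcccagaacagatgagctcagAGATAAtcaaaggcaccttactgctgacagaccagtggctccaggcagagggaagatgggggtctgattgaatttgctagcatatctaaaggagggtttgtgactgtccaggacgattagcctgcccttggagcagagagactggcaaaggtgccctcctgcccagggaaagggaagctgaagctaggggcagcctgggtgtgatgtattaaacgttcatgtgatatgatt
Esrrb +59.0 kb, chr12:86480526-86480742: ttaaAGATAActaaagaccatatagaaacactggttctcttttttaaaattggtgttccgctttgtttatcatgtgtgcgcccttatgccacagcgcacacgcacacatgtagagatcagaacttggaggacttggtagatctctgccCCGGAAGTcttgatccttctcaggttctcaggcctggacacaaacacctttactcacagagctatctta
Esrrb +60.2 kb, chr12:86481774-86481984: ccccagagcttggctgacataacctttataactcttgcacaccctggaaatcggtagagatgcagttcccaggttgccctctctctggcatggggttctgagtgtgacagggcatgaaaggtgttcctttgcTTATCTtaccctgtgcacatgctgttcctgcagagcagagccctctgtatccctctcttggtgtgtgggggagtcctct
The next pair are the only members with TCAAGGTCA.
Esrrb +24.9 kb, chr12:86385868-86386093: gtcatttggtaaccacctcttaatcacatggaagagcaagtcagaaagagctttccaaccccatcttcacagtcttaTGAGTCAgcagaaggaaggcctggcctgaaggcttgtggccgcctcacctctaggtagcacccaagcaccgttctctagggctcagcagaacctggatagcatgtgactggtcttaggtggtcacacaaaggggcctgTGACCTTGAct
Greb1 +23.1 kb, chr12:16734034-16734284: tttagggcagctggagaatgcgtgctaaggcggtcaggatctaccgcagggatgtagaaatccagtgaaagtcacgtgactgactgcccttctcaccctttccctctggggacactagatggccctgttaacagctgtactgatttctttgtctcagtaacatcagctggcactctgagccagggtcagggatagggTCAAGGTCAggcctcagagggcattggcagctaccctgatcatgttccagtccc
The last pair are the most open peaks of Esrra and Esr2, and neither holds any of the letters searched.
Esrra promoter, chr19:6921935-6922175: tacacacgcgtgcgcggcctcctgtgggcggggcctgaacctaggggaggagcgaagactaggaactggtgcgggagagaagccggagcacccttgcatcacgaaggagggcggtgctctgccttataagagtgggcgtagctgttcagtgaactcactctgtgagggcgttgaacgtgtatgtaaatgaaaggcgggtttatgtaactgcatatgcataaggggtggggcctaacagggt
Esr2 −18.9 kb, chr12:76196079-76196295: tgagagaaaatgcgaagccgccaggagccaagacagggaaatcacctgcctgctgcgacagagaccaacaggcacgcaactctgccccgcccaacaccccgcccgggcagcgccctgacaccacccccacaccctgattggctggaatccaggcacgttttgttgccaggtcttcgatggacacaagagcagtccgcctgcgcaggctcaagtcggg

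The libraries held 57.4 to 74.7 M tags (1 M is 1000000 tags), of which 17.5 to 21.1 M lay in peaks, with medians of 45.0 to 57.0 tags in a peak. Tamoxifen replicate 4 stood apart. Its mean Pearson correlation with the oil libraries across peaks (0.962) exceeded that with the other tamoxifen libraries (0.949), and values without it are given where they changed a call or a direction or moved a value widely. The Usp18 TSS peak averaged 438 ± 21.8 normalised tags (SD, n = 3) in the oil group and 449 ± 17.0 (SD, n = 3) in the tamoxifen group, and as the floxed exon is not stated in the sources used here, it does not check the deletion. In the sorted cells, the TSS peaks of Kit and Myb, 2 genes of immature blood cells, lay at the 97.9th and 95.5th percentile of all peaks per kb in oil, and 6 of 8 blast and progenitor genes had a peak within 1000 bp of the TSS, at a median percentile of 92.1. The same held for 10 of 10 erythroid genes (median percentile 74.1), 5 of 10 mature myeloid genes (30.2), 2 of 8 T-cell genes (26) and 2 of 8 B-cell genes (27.9). In such sorted populations, fewer cells with an open site and less opening per cell cannot be told apart.

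In the oil libraries, the promoter of Esrra was among the most open sites of the genome and the peaks nearest a start site of the other genes were far lower. Levels are normalised tags per kb of peak, in which the median of all peaks was 169. The Esrra peak at −247 bp reached 3682 ± 203 per kb (SD, n = 3), the 99.7th percentile of all peaks. The Esr2 peak at −206 bp, which overlaps untranslated exon sequence, reached 203 ± 28.7 per kb, and its neighbour at −794 bp reached 592 ± 27.8 per kb, the 81.4th percentile. For Pgr, the nuclear receptor of progesterone, the nearest peak lay 64868 bp downstream of the TSS and reached 147 ± 30.4 per kb, and for Esr1 it lay 13554 bp upstream and reached 135 ± 14.6 per kb. The Greb1 peak at +189 bp reached 103 ± 7.68 per kb. The nearest Esrrb peak, 5696 bp downstream of a start site, was lowest at 75.1 ± 17.1 per kb, the 5.15th percentile. In this order of oil levels, the library values of Esr2 and Pgr overlapped, as did those of Pgr and Esr1 and those of Greb1 and Esrrb, whereas Esrra stood clear of Esr2 and Esr1 of Greb1.

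**Figure D1:**
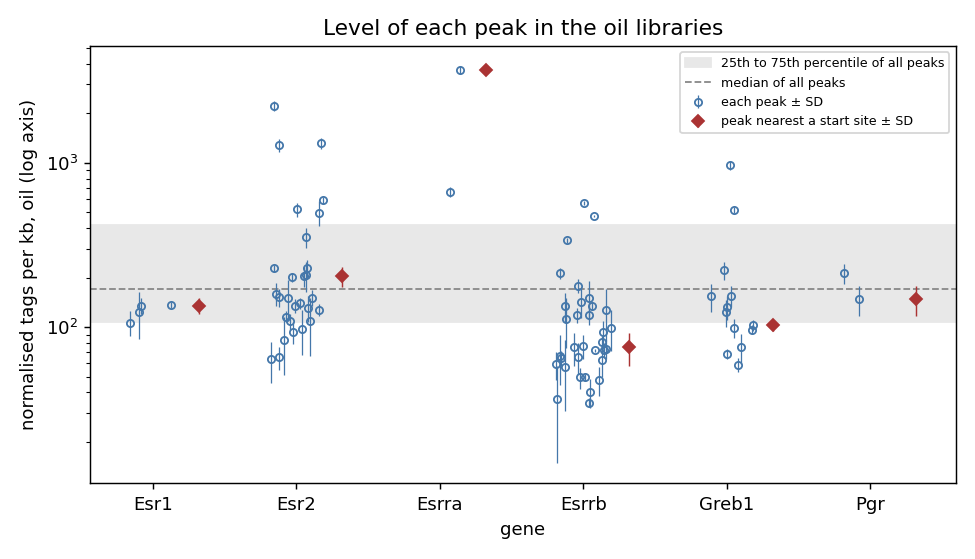
Normalised tags per kb (log axis) of each of the 82 peaks in the oil libraries, by gene; circles and bars show mean ± SD over 3 libraries, and diamonds repeat the peak nearest a start site. The Esrra promoter (3682 per kb) lies above all other peaks of these genes, and most Esrrb peaks lie below the median of all peaks (169 per kb).

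Open sites away from the start sites set a different order. The highest Esr2 peak lay 18928 bp upstream of the TSS and reached 2220 ± 158 tags per kb (SD, n = 3), the 96.3rd percentile. The highest Greb1 peak, 4796 bp upstream, reached 963 ± 57.1 per kb. The highest Esrrb peak lay 55062 bp upstream, in an exon of the non-coding gene 4732487G21Rik, and reached 570 ± 13.7 per kb. The highest peaks of Pgr and Esr1 reached 212 ± 28.2 and 137 ± 6.03 per kb. Neighbours in this order of the 6 genes did not overlap in their oil values. Of the 33 Esrrb peaks, 28 lay below the median of all peaks per kb and 18 below the 10th percentile.

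The called differences between the groups lay in Esrrb. After tamoxifen, 9 of its 33 peaks were higher by more than 2-fold with an adjusted p below 0.05, the rule by which peaks are termed called here, and 0 were lower. These 9 were all of the called members among 82, against 0.588% of all 175929 peaks called higher and 0.0659% called lower. As these genes were chosen by the same contrast, nothing is read from that comparison. At an adjusted p under 0.05 at any fold the members also numbered 9, all higher, with 1.22% of all peaks higher and 0.167% lower. In 25 Esrrb peaks each tamoxifen library lay above each oil library and in 0 each lay below, where 11.9% of all peaks had groups that did not overlap with tamoxifen higher and 10% with tamoxifen lower. Over all 82 members these counts were 29 and 5, so that the members without Esrrb had 4 and 5 of 49. The median log2 fold change was 0.86 over the Esrrb peaks, 0.02 over the 49 other members and 0.00 over all peaks.

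**Figure D2:**
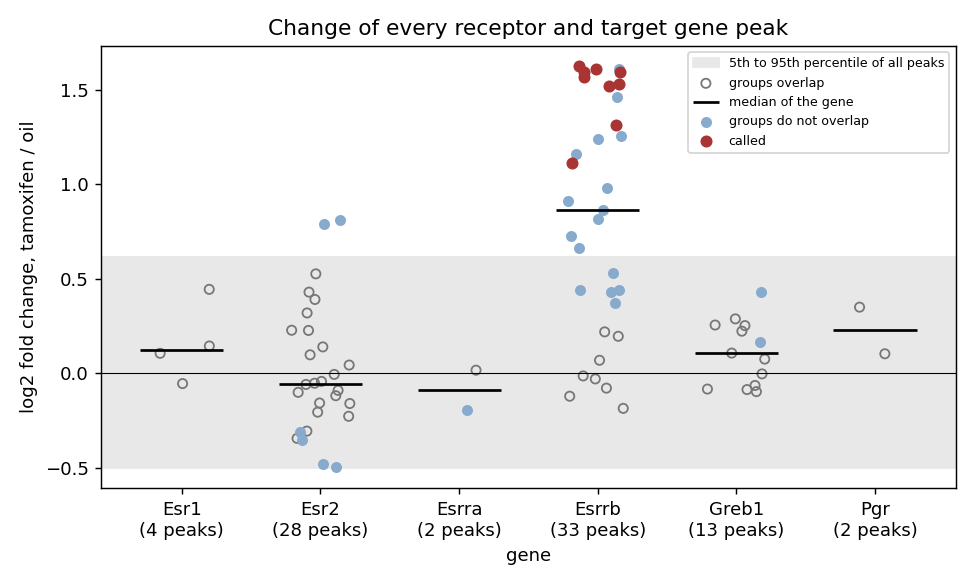
Log2 fold change of tamoxifen against oil at each member peak, by gene, with the median per gene (black lines) and the range from the 5th to the 95th percentile of all peaks (grey, −0.50 to 0.62). The 9 called peaks (red) all belong to Esrrb, and 49 peaks of the other genes range from −0.50 to 0.81.

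Summed over its 33 peaks, Esrrb held 1032, 1101 and 1093 normalised tags in oil replicates 1, 2 and 4, and 1852, 1681 and 1866 in tamoxifen replicates 1, 3 and 4. The groups did not overlap, and the ratio of the means was 0.74 on the log2 scale. Esr1, the receptor through which most estrogen responses of the uterus run, held sums of 122, 142 and 138 after oil and 148, 152 and 152 after tamoxifen, a log2 ratio of 0.17, also without overlap but over only 4 weak peaks. The sums of the other 4 genes overlapped between the groups, with log2 ratios of 0.21 for Pgr, 0.12 for Greb1, −0.01 for Esr2 and −0.01 for Esrra. Without tamoxifen replicate 4 these 4 ratios were 0.15, 0.17, 0.04 and 0.02, so that the sign for Esr2 and Esrra rested on single libraries, and those of Esrrb and Esr1 were 0.72 and 0.16.

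The peaks with larger differences in Esrrb lay within the gene and not upstream of it. The annotation gives Esrrb 2 start sites 60.5 kb apart, those of NM_001159500 and NM_011934. The counts by place stand beside 0.588% of all peaks called higher, and 11.9% higher and 10% lower without overlap. The 5 peaks upstream of both start sites ranged from −0.19 to 0.22 in log2 fold change, and in 0 of them were the groups apart. The 6 peaks in the first intron of NM_001159500 had a median of 0.59 and 4 without overlap. The 7 peaks in the first intron of NM_011934 had a median of 1.16, all 7 were without overlap and 1 was called. The 12 peaks in its second intron, packed into 14.4 kb, had a median of 1.29, all 12 were without overlap and 7 were called. Of the 2 peaks in intron 5, 1 was called, and the single downstream peak had a log2 fold change of 0.44 without overlap. Summed over the 12 peaks of the second intron, the oil libraries held 277, 325 and 312 normalised tags and the tamoxifen libraries 759, 631 and 857. Adjoining peaks of a locus share their libraries and partly their fragments, so they are not independent of each other. Peaks that stood only in the authors' peak list of the tamoxifen group numbered 0 of the 5 upstream. They numbered 3 of 6 in the first intron of NM_001159500, and 5 of 7 and 8 of 12 in introns 1 and 2 of NM_011934. In intron 5 they numbered 2 of 2, and downstream 0. Such peaks entered by being high after tamoxifen, so nothing is read from the contrast between places.

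**Figure D3:**
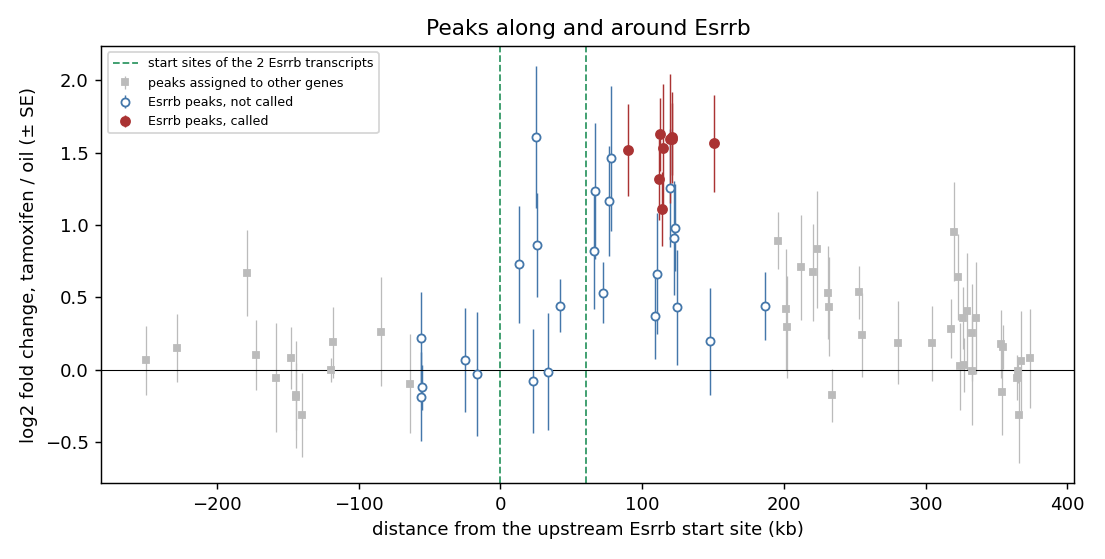
Log2 fold change (± SE) of each peak against its distance in kb from the upstream Esrrb start site, with both start sites marked as dashed lines. Called Esrrb peaks (red, 1.11 to 1.63) lie inside the gene, the 5 peaks upstream of both start sites lie between −0.19 and 0.22, and grey squares are peaks assigned to neighbouring genes. Of the 33 Esrrb peaks, 18 stood in the peak list of the tamoxifen group alone, 0 of them upstream.

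The locus beyond Esrrb, examined after its values were seen, held smaller differences on its downstream side. Within 200000 bp of the outermost Esrrb peaks, the 13 upstream peaks, assigned to Gpatch2l, Gm805 and Ift43, had a median log2 fold change of 0.06, and in 0 of them were the groups apart. The 31 downstream peaks, assigned mostly to Vash1, an inhibitor of angiogenesis, had a median of 0.26, with 12 higher without overlap and 0 lower. Over all peaks, 11.9% were higher and 10% lower without overlap. None of these 44 peaks was called (0), and 1, the Vash1 peak starting at 86556888 (log2 fold change 0.89, SE 0.20), passed an adjusted p of 0.05.

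Among the called peaks, the difference was largest at +51.9 kb in the second intron (chr12:86473345-86473709). Its normalised tags were 40.3, 48.3 and 41.2 in the oil libraries, and 108, 107 and 185 in the tamoxifen libraries. Every tamoxifen library exceeded the highest oil library, and replicate 4 was highest. The log2 fold change was 1.63 (SE 0.25), and 1.32 without tamoxifen replicate 4.

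The peak at +60.6 kb (chr12:86482083-86482386) had 32.5, 41.0 and 49.3 tags after oil and 117, 95.3 and 161 after tamoxifen. The groups were well apart, with a log2 fold change of 1.59 (SE 0.25). Its neighbour at +60.2 kb, shown above in full, had 17.6, 32.7 and 20.6 tags after oil and 86.0, 53.5 and 77.8 after tamoxifen, with tamoxifen replicate 1 highest. Its log2 fold change was 1.61 (SE 0.31).

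In the first intron of NM_011934, the peak at +29.4 kb (chr12:86450909-86451214) had 21.5, 22.4 and 22.4 tags after oil and 60.4, 49.0 and 81.9 after tamoxifen (log2 fold change 1.52, SE 0.32). The oil libraries nearly coincided there, and the tamoxifen libraries spread over a wide range above them. In intron 5, the peak at +90.2 kb (chr12:86511734-86511966) had 17.1, 20.0 and 19.7 tags after oil and 46.4, 51.3 and 70.8 after tamoxifen (log2 fold change 1.57, SE 0.33). Replicate 4 was again the highest of the tamoxifen libraries.

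The remaining 4 called peaks lay in the second intron. At +51.3 kb the oil libraries held 26.5, 36.6 and 30.0 tags and the tamoxifen libraries 72.5, 64.6 and 97.3 (log2 fold change 1.32, SE 0.28). At +53.4 kb they held 28.7, 50.7 and 40.8 against 88, 75.8 and 97.8, the smallest called difference (1.11, SE 0.26). The peaks at +53.9 kb (11.6, 10.2 and 11.2 against 31.4, 24.5 and 34.9) and +59.0 kb (9.38, 12.7 and 8.96 against 35.8, 25.1 and 31.7) rested on few tags, with log2 fold changes of 1.53 (SE 0.44) and 1.60 (SE 0.45). At all 9 called peaks the lowest tamoxifen library exceeded the highest oil library, by 1.49 to 2.32 times.

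**Figure D4:**
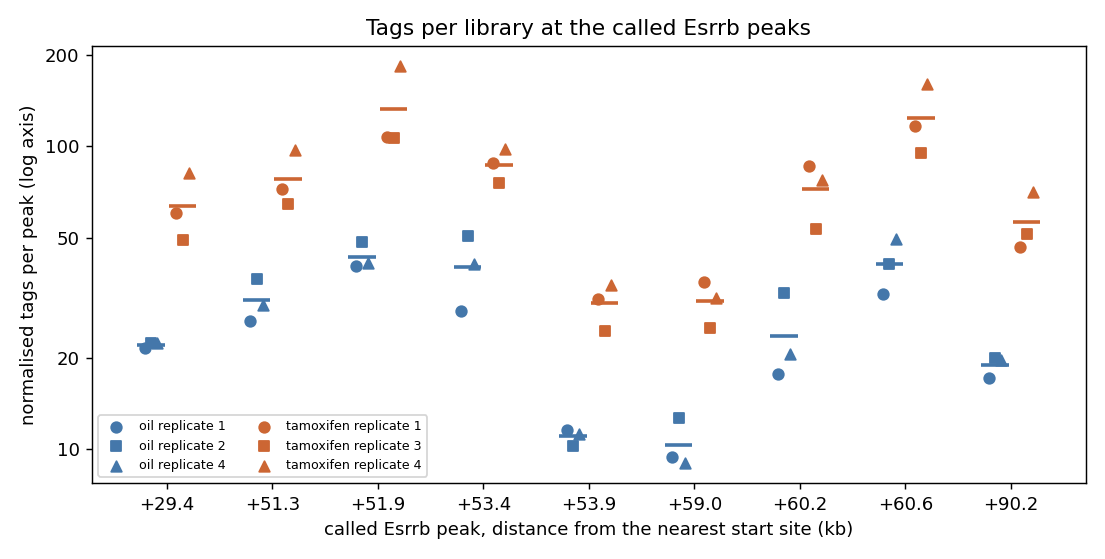
Normalised tags per library (log axis) at the 9 called Esrrb peaks, ordered along the gene by distance in kb from the nearest start site; bars mark group means. All tamoxifen libraries (orange) lie above all oil libraries (blue) at each peak, and tamoxifen replicate 4 (triangles) is highest at 7 of 9.

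Tamoxifen replicate 4, which across all peaks correlated more with the oil libraries, was the highest library at 7 of the 9 called Esrrb peaks, and tamoxifen replicate 3 was the lowest tamoxifen library at 8. Without replicate 4, all 9 kept log2 fold changes of 1.02 to 1.57, and 8 remained called, with +53.9 kb the one lost. Summed over the 9 peaks, the oil libraries held 205, 275 and 244 normalised tags, and tamoxifen replicates 1, 3 and 4 held 645, 546 and 838. Among the Esrrb peaks not called, replicate 4 was the lowest tamoxifen library at several and the highest at others. The peak at +24.9 kb, in the first intron of NM_001159500, was of the first kind. It had 7.17, 10.7 and 9.41 tags after oil and 30.4, 34 and 17.2 after tamoxifen, so that replicate 4 was the lowest of its group. It was not called with all libraries (log2 fold change 1.61, SE 0.49) and was called without replicate 4 (1.87), as was the peak at +62.9 kb (0.98, SE 0.30 with all libraries and 1.22 without replicate 4).

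Most of these Esrrb sites were weak in oil. The 9 called peaks averaged 10.3 to 43.2 normalised tags after oil and 30.3 to 133 after tamoxifen, and their oil levels per kb lay between the 0.0648th and the 39.3rd percentile of all peaks. Of the 33 Esrrb peaks, 18 stood in the authors' peak list of the tamoxifen group alone, 13 in both lists and 2 in that of the oil group alone, and 6 of the 9 called peaks came from the tamoxifen list alone. Among all peaks, 11.2% came from the tamoxifen list alone, and 2.23% of those were called, against 0.50% of peaks in both lists. Both lists derive from the same libraries, so a peak that entered through the tamoxifen list was already high there.

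Esr2, the second estrogen receptor, had nearly as many peaks as Esrrb but no common direction. Of its 28 peaks, 0 were called, and 2 were higher and 4 lower without overlap. The shares of all peaks were 0.588% called higher, and 11.9% higher and 10% lower without overlap. The median log2 fold change of the Esr2 peaks was −0.06, or 0.00 without tamoxifen replicate 4. Its main open site at −18.9 kb held 517, 479 and 449 tags after oil and 519, 512 and 459 after tamoxifen. The libraries overlapped (log2 fold change 0.04, SE 0.10, 0.10 without tamoxifen replicate 4 and −0.01 without oil replicate 4). The largest differences lay at weak peaks. The peak at +104532 bp lay in an intron of another gene, Syne2. Its tags were 17.1, 14.6 and 20.2 after oil and 31.4, 26.2 and 33.1 after tamoxifen (log2 fold change 0.81, SE 0.39). At +44413 bp, within Esr2, the tags were 41.9, 39.0 and 45.2 against 26.6, 32.9 and 28.9 (−0.50, SE 0.31). At +53787 bp the tags were 19.3, 21.5 and 9.41 after oil and 31.9, 30.6 and 23.3 after tamoxifen (0.79, SE 0.42). The promoter peak at −206 bp overlapped between the groups, with 92.1, 122 and 107 tags against 92.3, 87.5 and 101 (−0.21, SE 0.20).

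Esr1, the first estrogen receptor and the main target of tamoxifen in breast, had no peak at its start site and 4 distal peaks of 27.9 to 37.7 tags in oil. None of them (0) overlapped an annotated exon, so no Esr1 peak lay over sequence that codes for the receptor domain of the Cre fusion. At the nearest, 13554 bp upstream, the libraries held 35.3, 42.4 and 35.4 tags after oil and 45.4, 36.2 and 44.2 after tamoxifen (log2 fold change 0.14, SE 0.30). The groups overlapped at all 4 peaks.

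The Esrra promoter, by far the most open site of the family, held 934, 892 and 836 tags after oil and 875, 964 and 853 after tamoxifen. The groups overlapped, and the log2 fold change of 0.02 had an SE of 0.08 and was −0.04 without tamoxifen replicate 3 and −0.02 without oil replicate 4. The second Esrra peak, at +753 bp over its first exon and intron, held 147, 152 and 167 tags after oil and 141, 128 and 139 after tamoxifen. There each tamoxifen library lay below each oil library by a small margin (−0.19, SE 0.16).

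Greb1 and Pgr, whose transcription estradiol induces in breast and uterus, differed little. Of the 13 Greb1 peaks, 0 were called and 2 were higher without overlap, beside 0.588% of all peaks called higher and 11.9% higher without overlap. The upstream site at −4796 bp held 217, 213 and 194 tags after oil and 230, 238 and 231 after tamoxifen (log2 fold change 0.17, SE 0.13), a small shift without overlap. At +3787 bp the tags were 19.3, 26.8 and 29.1 against 31.4, 34.5 and 37.7 (0.43, SE 0.35). The Greb1 start site peak at +189 bp overlapped, with 19.9, 22.4 and 22.8 tags against 25.1, 19.5 and 17.2 (−0.09, SE 0.41, and 0.05 without tamoxifen replicate 4). Both Pgr peaks, at −67473 and +64868 bp, overlapped between the groups (0.10, SE 0.29 and 0.35, SE 0.29). Without tamoxifen replicate 4 they were −0.16 and 0.47, so that the first changed sign, as it did without oil replicate 2 (−0.0049).

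The letters of the classical estrogen response element occurred in 0 of the 82 members and in 0.021% of 137899 peaks of the same range of widths as the Esrrb peaks, both strands being searched. The single copy AGGTCA occurred in 6 of 33 Esrrb peaks (18.2%) and in 15% of those peaks, and the extended site TCAAGGTCA, which contains it, in 1 Esrrb and 1 Greb1 peak, against 0.503% of peaks. In the Esrrb peak at +24.9 kb the extended site stands on the minus strand near the end of the peak, and in the Greb1 peak at +23.1 kb on the plus strand. That Greb1 peak held 25.9, 22.9 and 23.7 tags after oil and 37.7, 30.6 and 21 after tamoxifen, with overlap. AGATAA occurred in 5 of the 9 called Esrrb peaks, in 1 of the 24 Esrrb peaks not called and in 19.2% of peaks of that width range. This share among called peaks is a description of a set chosen by its values, and a match is not evidence of binding. TGTGGT occurred in 9 of 33 Esrrb peaks (27.3%) against 23.6% of peaks, TGANTCA in 6 (18.2%) against 8.62%, and CCGGAAGT in 1, the called peak at +59.0 kb, against 1.05%. The median GC content was 51.6% in Esrrb peaks and 50.2% in all peaks.

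Counts of called peaks at genes that work with these receptors stood beside 0.588% of all peaks called higher and 0.0659% called lower, and nothing particular to the lists is read from them. Of 218 peaks of 12 coregulators, 2 were called higher and 0 lower. Their median log2 fold change was 0.01, or −0.0007 without tamoxifen replicate 4. All 12 had peaks, and 11 had one within 1000 bp of the TSS. Of 228 peaks of 13 estrogen-responsive genes of breast and uterus, 3 were called higher, all at Stc2, a secreted glycoprotein, and 0 lower. The median of the 228 peaks was 0.00, or −0.02 without tamoxifen replicate 4. The Stc2 start site peak, which was below 2-fold and not among the 3 called, averaged 33.4 tags after oil and 61.0 after tamoxifen (log2 fold change 0.88, SE 0.29). Ca12, the remaining gene of that list, had no peak (0). Of 73 peaks of 12 mitochondrial target genes of the estrogen-related receptors, 0 were called and the median was −0.05, or −0.10 without tamoxifen replicate 4. Their start sites were wide open, with a median percentile of 98.5 in oil among the 8 with a peak within 1000 bp. The Atp5b promoter, of an ATP synthase subunit, averaged 922 tags after oil and 915 after tamoxifen, and that of Idh3a, a subunit of isocitrate dehydrogenase, 720 and 707.

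Peaks of cell type marker genes are given beside the shares of all peaks whose groups did not overlap, 11.9% higher and 10% lower. Of 339 peaks of 7 genes of blasts and progenitors, 263 were assigned to Runx1 and 44 to Kit. Of the 339, 2 were called higher and 0 lower, 77 were higher without overlap (22.7%) and 18 lower (5.31%). Their median log2 fold change was 0.15, or 0.23 without tamoxifen replicate 4, and these shares and medians describe mainly Runx1. The Cd34 start site peak averaged 94.6 tags after oil and 270 after tamoxifen (1.50, SE 0.19), the largest difference among the peaks nearest the TSS of these 7 genes. The others had log2 fold changes of 0.84 (Ptprc, 38494 bp from the TSS), 0.73 (Flt3), 0.09 (Runx1), 0.05 (Kit), −0.04 (Spi1) and −0.07 (Myb). Of 108 peaks of 10 erythroid genes, 1 was called, which was higher, 7 were higher (6.48%) and 22 lower without overlap (20.4%), with a median of −0.15, or −0.07 without tamoxifen replicate 4. Summed over the erythroid peaks, the oil libraries held 12319 to 12695 normalised tags and the tamoxifen libraries 11359 to 11768. T-cell genes had 23 peaks, with 21.7% higher and 4.35% lower without overlap, B-cell genes 38, with 13.2% and 0%, and mature myeloid genes 72, with 12.5% and 6.94%, the last 2 being near the share of all peaks for higher. Of these, 0 were called, and the medians were 0.20, 0.05 and 0.09, with 0.10 for B cells without tamoxifen replicate 4. Their summed tags after oil and tamoxifen were 1095 to 1245 and 1283 to 1413 for T cells, 2072 to 2147 and 2118 to 2322 for B cells, and 6242 to 6496 and 6468 to 6671 for mature myeloid cells, and the sums of blasts and progenitors were 28875 to 30074 and 30911 to 34110. Cd33, Cd8b1, Ms4a1 and Vpreb1 had 0 peaks. Whether a change in the makeup of the sorted cells has a part in the Esrrb values was not tested.

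The genes whose summed tags followed those of a member most closely over the 6 libraries were Epcam and Isl2 for Esrrb (Pearson r of log2 sums 0.998 and 0.996), Tmem106c and Cep295 for Esr2 (0.996 and 0.993), Twist2 and Arhgef10 for Greb1 (0.997 and 0.996), Atl1 and Vcp for Esrra (0.999 and 0.997), Gm26682 and Epb41l4aos for Esr1 (0.988 and 0.987), and Pdcd1lg2 for Pgr (0.992). All points share library and depth. With 15285 genes compared over 6 libraries, high values are common, and 745 genes reached 0.9 for Esrrb.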

How the data were processed

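ATAC-seq libraries of sorted AE9a splenocytes, 3 from oil-treated and 3 from tamoxifen-treated recipients, were compared over 1 table of merged peaks. Per the submitters' processing notes and the study's methods, the authors mapped reads to mm10 with Bowtie2, called and merged peaks with HOMER and assigned each peak to its nearest TSS. The deposited values are estimated counts, raw tags per peak in steps of 0.5, with at most 3 tags per position, which caps the highest peaks.

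Tags were rounded to whole numbers and all 175929 peaks were fitted together with DESeq2 1.42.0 (R 4.3.3; Wald test, Benjamini-Hochberg adjustment). The study's methods fit distal peaks (over 3000 bp from a TSS) alone, which was an alternative here, as were edgeR 4.0.16 (quasi-likelihood), other size factors, a filter of 10 tags in 3 libraries, a limit of 100000 bp, a replicate block and leaving out each library. All 82 members passed that filter. Normalised tags are tags divided by DESeq2 size factors. Standard errors (SE) are those of the fit. Fits were tested on simulated data.

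The members, gene lists and motifs were chosen with earlier results of these data known. Named peaks are, for each gene, the peak nearest a TSS, the highest in oil per kb, up to 3 with the largest change among those with at least 10 mean tags and groups apart, and every called peak; the Greb1 peak at +23.1 kb was added for its sequence after its values were seen. The likeness used genes with at least 3 peaks. Peak distances were checked against the reference annotation, and 82 of 82 member distances lay within 2 bp. Some genes and 1 sequence that these rules select are not reported here.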

Additional observations from a re-analysis of the deposited data

How the results depend on the processing

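The count of called members, 9 with all libraries, stayed at 9 with 3 other sets of size factors, with the tag filter and within 100000 bp, and was 10 with distal and promoter-proximal peaks fitted apart. It was 14 with edgeR, all of Esrrb, and 6 to 10 when a library was left out, with 6 to 8 of the original 9 still called. Without any 1 library other than tamoxifen replicate 4, DESeq2 gave 2 of the 9 no adjusted p, as with the replicate block. Replicate numbers 1 and 4 occur in both groups, and the deviations of same-numbered libraries from their group means correlated at −0.04 and 0.05. The labels state no pairing, and correlations over so few libraries cannot exclude one. With a replicate block on those 4 libraries 1 member was called, in a fit of fewer libraries that called 19 of all peaks higher and 33 lower, and the log2 fold changes of the 9 Esrrb peaks were 1.42 to 2.10. The 9 peaks stayed higher under every alternative listed here, with log2 fold changes from 0.93 up. The count of members with groups that do not overlap (34) was 32 to 44 under the alternatives run. The median log2 fold change of the members (0.21) ranged from 0.12, without tamoxifen replicate 1, to 0.28, without tamoxifen replicate 4. Of 338 values of the 26 named peaks, 327 moved by less than 1 SD and 0 of a called peak changed sign, whereas peaks near 0 at Pgr, Greb1, Esr1, Esr2 and Esrra did under some alternatives. Of 66 ratios of summed tags, 61 moved by less than 1 SD. At weak Esrrb peaks, with 10 to 20 tags per library in oil, counting error limits what can be called. The peaks and genes were chosen from this same contrast, so stability of their direction is not support.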
